A study of Homo sapiens with 6 samples.

Results

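ATF4, DDIT3, TRIB3, CHAC1, ASNS, PSAT1, PHGDH, PSPH, SHMT2 and MTHFD2 are 4 regulators and effectors of the integrated stress response and 6 enzymes that make asparagine, serine and folate-bound carbon units. The 10 genes were chosen by name for these roles, with earlier results of these data known. Their counts set beside the shares of all genes are therefore descriptive. All 10 were listed for both cell lines and passed the filter on low values, a mean of at least 1 CPM (a gene's reads as a share of all gene-assigned reads of its library, scaled to a fixed total), among 13265 genes tested and 19945 listed. RNA sequencing libraries came from T24 and UM-UC-3, established human bladder carcinoma lines, exposed for 48 h to siRNA-1 or siRNA-2 at a labelled 0.04 OD, or to a negative control whose makeup the labels do not state. Each line and treatment gave 1 library, so that there were 2 T24 siRNA libraries and 1 T24 control, and 2 UM-UC-3 siRNA libraries and 1 UM-UC-3 control. T24 was grown in RPMI-1640 and UM-UC-3 in DMEM, each with 10% FBS, so line and medium cannot be told apart. As background, RPMI-1640 contains asparagine and DMEM does not. The study asks which genes depend on the silenced factor, which the series title and the UM-UC-3 column names give as HSF1.

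The integrated stress response begins with kinases that sense amino acid shortage, unfolded protein in the endoplasmic reticulum, lack of heme or viral RNA and that phosphorylate the initiation factor eIF2. General protein synthesis then slows while translation of the ATF4 mRNA increases, and the ATF4 protein activates genes for amino acid synthesis, uptake and loading onto tRNA. Because much of this control is translational, ATF4 mRNA is only part of the output of the pathway. In tumour cells the serine branch is known for feeding nucleotide synthesis through folate-bound carbon units.

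The libraries held 23709089 to 28504833 gene-assigned reads, so 1 read was worth 0.0351 to 0.0422 CPM. HSF1 stood at 20.3 and 22.7 CPM in the T24 siRNA libraries against 106 CPM in their control. In UM-UC-3 it stood at 50.3 and 36.5 CPM with the siRNAs against 138 CPM in the control. Among the urothelial and epithelial markers KRT18 stood between 186 and 335 CPM in all 6 libraries, while UPK2 was at 0 or at most 0.112 CPM and GATA3 at most 1.16 CPM. Of 14 such markers 8 were listed in both lines, with a summed level of 1071 and 804 CPM in T24 siRNA libraries against 1158 CPM in their control, and of 223 and 218 CPM in UM-UC-3 siRNA libraries against 287 CPM in theirs. Of 9 markers of blood, endothelial, fibroblast and smooth muscle cells 6 were listed in both lines, and PTPRC, CD3E and COL3A1 were not. The listed ones summed to 3.69 and 6.09 CPM in T24 siRNA libraries against 6.75 CPM in their control. In UM-UC-3 they summed to 13.3 and 16.7 CPM with the siRNAs against 9.80 CPM in the control. The mesenchymal markers VIM, CDH2 and ZEB1, all 3 of them listed, summed to 143 and 234 CPM in T24 siRNA libraries against 395 CPM in their control, and to 906 and 878 CPM in UM-UC-3 siRNA libraries against 999 CPM in theirs. In UM-UC-3 only VIM was below the control under both siRNAs. ZEB1 stood there at 111 and 113 CPM with the siRNAs against 90.7 CPM in the control. CDH2 stood at 32.1 and 49.8 CPM against 33.6 CPM in UM-UC-3. In T24 each of the 3 markers was lower in both siRNA libraries, along with the 10 genes described next. The part of these markers in the T24 levels of the 10 genes was not tested.

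The promoters of ASNS, CHAC1 and PHGDH are shown because these 3 genes had the lowest levels relative to the control in the T24 siRNA libraries. Each is the RefSeq window of 300 bases on GRCh38.p14, with 250 bases before the transcript start, for ASNS at chr7:97872359-97872658 (minus strand), for CHAC1 at chr15:40953221-40953520 (plus strand) and for PHGDH at chr1:119711684-119711983 (plus strand). Capitals mark a match to TGATGNAA, the core of the C/EBP-ATF response element that ATF4 binds together with C/EBP proteins.
ASNS: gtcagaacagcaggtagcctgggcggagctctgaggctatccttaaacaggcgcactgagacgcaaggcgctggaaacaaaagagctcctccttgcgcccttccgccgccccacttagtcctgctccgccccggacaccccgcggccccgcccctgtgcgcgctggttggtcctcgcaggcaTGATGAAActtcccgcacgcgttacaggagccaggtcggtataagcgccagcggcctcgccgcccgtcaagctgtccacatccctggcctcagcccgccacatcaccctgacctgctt
CHAC1: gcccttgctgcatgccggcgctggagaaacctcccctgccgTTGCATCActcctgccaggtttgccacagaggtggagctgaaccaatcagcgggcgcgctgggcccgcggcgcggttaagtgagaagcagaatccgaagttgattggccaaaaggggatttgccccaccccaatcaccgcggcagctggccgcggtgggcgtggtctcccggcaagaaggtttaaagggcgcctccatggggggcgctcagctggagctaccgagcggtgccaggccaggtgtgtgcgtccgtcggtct
PHGDH: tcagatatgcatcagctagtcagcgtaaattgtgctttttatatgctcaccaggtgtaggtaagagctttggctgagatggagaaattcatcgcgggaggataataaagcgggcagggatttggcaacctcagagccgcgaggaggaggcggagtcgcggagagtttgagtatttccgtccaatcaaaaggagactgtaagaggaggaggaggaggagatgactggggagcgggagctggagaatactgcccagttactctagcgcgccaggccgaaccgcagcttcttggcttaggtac
Counted from the transcript start, the ASNS match spans positions -68 to -61 and the CHAC1 match, on the opposite strand, positions -209 to -202. The table held 13 windows for 8 of the 10 genes, some with more than 1 transcript start, and the element was in 2 of the 13, against 3.62% of 35116 promoter windows searched on both strands. The other ASNS window, at a second start, held none. The endoplasmic reticulum stress element (CCAAT and CCACG with 9 bases between them) was in 0 of the 13 and in 0.0769% of all windows, counting exact matches only. Each DDIT3 window held CCAAT and CCACT with 9 bases between them, which differs from the element in its last base. The heat shock element (GAA, TTC and GAA, or TTC, GAA and TTC, each 2 bases apart) was in 0 of the 13 and in 0.49% of all windows, so the matches shown overlap no other motif searched. SHMT2 and PSPH had no window.

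In T24 each siRNA library held all 10 genes at a lower level than the control did, and both held 8 of them at least 2-fold lower, the exceptions being PSPH and SHMT2. Summed over the 10 genes the level was 1179 CPM under siRNA-1 and 1093 CPM under siRNA-2, against 3275 CPM in the control. Lower levels in both siRNA libraries were measured for 30.1% of all tested genes, and levels at least 2-fold lower in both for 5.19%. The median log2 fold change was -1.47 over the 10 genes and 0.07 over all tested genes. In limma-trend 0 of the 10 passed a Benjamini-Hochberg adjusted p of 0.05 over all genes, as did 0% of all genes, and 9 of the 10 had an unadjusted p under 0.05 with a lower level, against 6.91% of all genes. By edgeR 0 of the 10 and 0% of all genes passed, and by DESeq2 5 of the 10 (TRIB3, CHAC1, ASNS, PSAT1 and PHGDH) and 2.43% of all genes. Every T24 difference rests on 1 control library. Without T24 siRNA-1, limma-trend called PHGDH (1 of 10, against 0.574% of all genes), and without T24 siRNA-2 it called ASNS, PSAT1 and PHGDH (3 of 10, against 4.25%), each fit assuming that the single libraries left vary like the rest. These values are shares of a library, so fewer cells with a transcript and less of it per cell cannot be told apart.

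**Figure D1:**
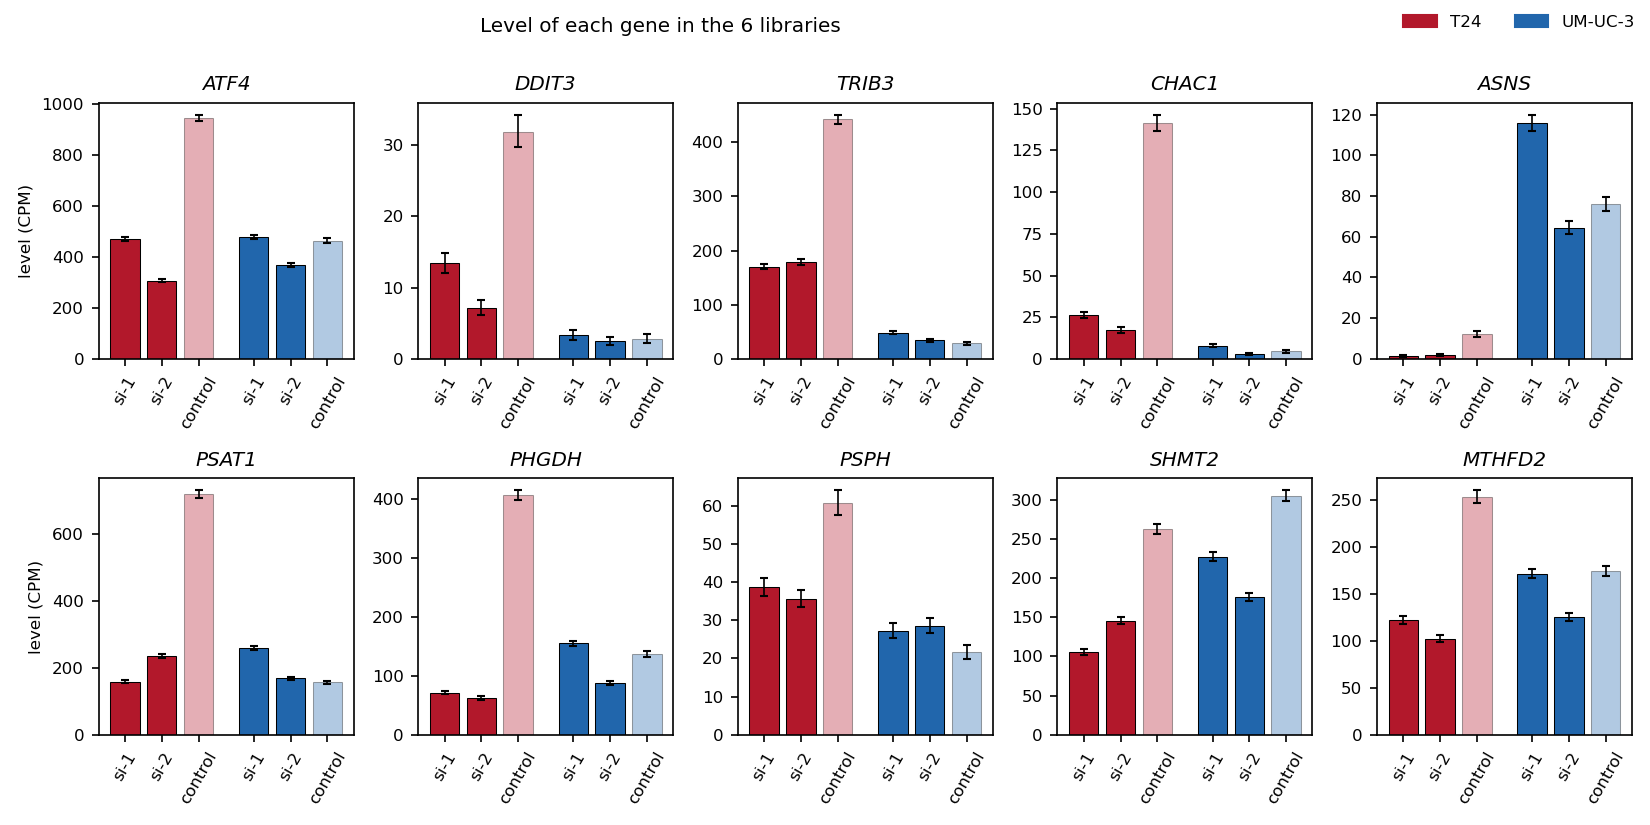
Level of each gene in CPM in the 6 libraries, with the siRNA libraries in full colour and the control of the same line in pale colour. Bars are single libraries and whiskers are exact Poisson 95% intervals that cover counting error only. In T24 (red) the control bar is the highest of the 3 for each gene, while in UM-UC-3 (blue) the control lies within or near the range of the siRNA libraries for most genes.

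ATF4, the transcription factor at the centre of the response, stood at 471 and 308 CPM in the T24 siRNA libraries against 945.5 CPM in the T24 control. Its share of the control level was 49.8% for siRNA-1 (95% counting interval of the ratio 0.488 to 0.509) and 32.5% for siRNA-2 (0.317 to 0.334). The log2 fold change was -1.31 ± 0.36 (SE, adjusted p = 0.287). DDIT3, which encodes CHOP, a transcription factor that promotes death of stressed cells, stood at 13.4 and 7.18 CPM with the siRNAs against 31.9 CPM in the control. siRNA-2 left the lower level of the pair for both transcription factors. TRIB3, a pseudokinase that ATF4 induces and that restrains its activity, stood at 170.1 and 178 CPM with the siRNAs against 442 CPM in the control. CHAC1, an enzyme that degrades glutathione, stood at 26.5 and 17.3 CPM with the siRNAs against 141 CPM in the control, which is 18.7% and 12.2% of it. Among these 4 genes CHAC1 thus had the lowest share of the control in each T24 siRNA library (log2 fold change -2.67 ± 0.55, adjusted p = 0.253). The summed level of the 4 was 681 and 510.5 CPM with the siRNAs against 1561 CPM in the control.

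Asparagine synthetase ASNS, which makes asparagine from aspartate and glutamine, stood at 1.38 and 1.83 CPM in the T24 siRNA libraries against 12.4 CPM in the control. These are 38 and 49 reads against 294, and 11.1% and 14.8% of the control (ratio to the control 0.0769 to 0.156 for siRNA-1 and 0.107 to 0.200 for siRNA-2, 95% counting interval). The log2 fold change was -2.37 ± 0.44 (adjusted p = 0.218). At this low level it depends on the constant added before the log, with -1.40 at a constant of 5 CPM and -3.03 in edgeR.

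The serine branch runs from PHGDH, which oxidises phosphoglycerate and commits it to serine, through the transaminase PSAT1 to the phosphatase PSPH. PHGDH stood at 71.6 and 62.3 CPM in the T24 siRNA libraries against 407 CPM in the control, which is 17.6% and 15.3% of it (log2 fold change -2.59 ± 0.40, adjusted p = 0.165). PSAT1 stood at 157 and 235 CPM with the siRNAs against 718 CPM in the control, which is 21.9% and 32.7% of it (log2 fold change -1.89 ± 0.39, adjusted p = 0.253). PSPH stood at 38.7 and 35.7 CPM with the siRNAs against 60.8 CPM in the control, which is 63.6% and 58.7% of it. The 3 steps of the branch thus differed in size of the T24 difference, with PSPH (log2 fold change -0.70 ± 0.31, adjusted p = 0.440) nearest to its control of all 10 genes. The summed level of the branch was 268 and 332 CPM with the siRNAs against 1185 CPM in the control.

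The mitochondrial folate enzymes take the carbon unit of serine further, SHMT2 by cleaving serine to glycine and MTHFD2 by oxidising the folate-bound unit. SHMT2 stood at 106 and 146 CPM in the T24 siRNA libraries against 263 CPM in the control (log2 fold change -1.07 ± 0.34, adjusted p = 0.327). MTHFD2 stood at 123 and 102 CPM with the siRNAs against 254 CPM in the control (log2 fold change -1.17 ± 0.33, adjusted p = 0.295). For both enzymes the siRNA libraries held between 40.3% and 55.5% of the control level. The T24 differences of the 10 genes thus spanned log2 fold changes of -2.67 for CHAC1 to -0.70 for PSPH, with adjusted p from 0.165 to 0.440.

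In UM-UC-3 the same genes lay on both sides of the control, and for 5 of the 10 the siRNAs lay on opposite sides of it. Under siRNA-1 8 of the 10 genes were above the control and 2 below, and under siRNA-2 3 were above and 7 below. Of all tested genes 45.3% were below the control under siRNA-1 and 45.1% under siRNA-2. Only SHMT2 and MTHFD2 were below the control in both UM-UC-3 siRNA libraries (30.4% of all tested genes were), and TRIB3, PSAT1 and PSPH were above it in both (39.8% of all). MTHFD2 under siRNA-1 lay within counting error of the control. The other 5 genes, ATF4, DDIT3, CHAC1, ASNS and PHGDH, were above it under siRNA-1 and below it under siRNA-2, a pattern of 14.6% of all tested genes. The median log2 fold change was 0.05 over the 10 genes and 0.04 over all genes. No member passed in limma-trend (0 of 10, against 0% of all genes; 0 of 10 at an unadjusted p under 0.05, against 3.05% of all), in edgeR (0 of 10, against 0%) or in DESeq2 (0 of 10, against 0.0226%).

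**Figure D2:**
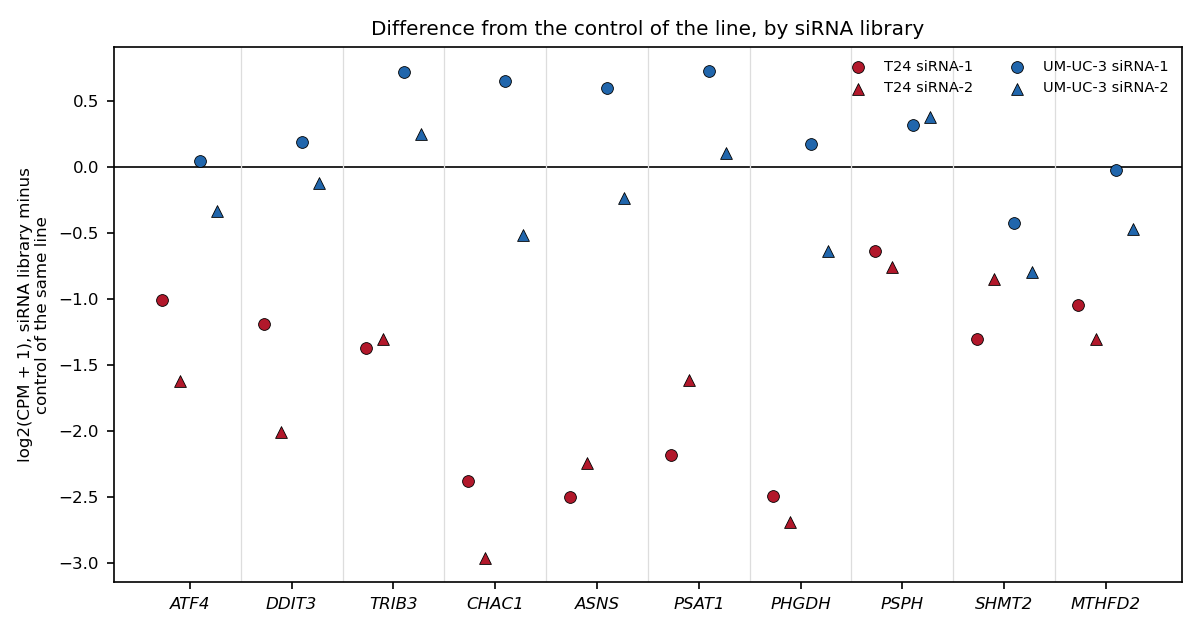
Difference of each siRNA library from the control of its line on the log2(CPM + 1) scale (vertical axis) for the 10 genes, with circles for siRNA-1 and triangles for siRNA-2. All 20 T24 points (red) lie below 0, while the 20 UM-UC-3 points (blue) lie on both sides of it, with the siRNA-1 point above the siRNA-2 point for 9 of the 10 genes.

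ATF4 stood at 479 and 369 CPM in the UM-UC-3 siRNA libraries against 464 CPM in the control (log2 fold change -0.14 ± 0.36). TRIB3 stood at 48.1 and 34.3 CPM against 28.7 CPM in the control, which is 168% and 120% of it (ratio to the control 1.53 to 1.84 for siRNA-1 and 1.08 to 1.32 for siRNA-2, 95% counting interval). Its log2 fold change was 0.49 ± 0.33. CHAC1 stood at 7.92 and 2.98 CPM against 4.68 CPM in the control, so that the siRNAs lay on opposite sides of it (log2 fold change 0.07 ± 0.55). DDIT3 was low in this line, at 3.34 and 2.49 CPM against 2.80 CPM, and its counting intervals of the ratio included 1 for each siRNA (log2 fold change 0.03 ± 0.44, and -0.02 after TMM scaling).

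ASNS stood at 116 and 64.5 CPM in the UM-UC-3 siRNA libraries against 76.0 CPM in the control, with a log2 fold change of 0.18 ± 0.44. PHGDH stood at 155 and 88.0 CPM against 137 CPM, with a log2 fold change of -0.23 ± 0.40. PSAT1 stood at 259 and 168 CPM against 156 CPM, with a log2 fold change of 0.42 ± 0.39. Each of these 3 enzymes had its highest UM-UC-3 level with siRNA-1. PSPH stood at 27.2 and 28.5 CPM against 21.6 CPM in the control (log2 fold change 0.35 ± 0.31). SHMT2 stood at 227 and 176 CPM against 305 CPM, with the lowest log2 fold change of the 10 genes in this line, -0.61 ± 0.34. MTHFD2 stood at 172 and 126 CPM against 174 CPM (log2 fold change -0.24 ± 0.33). The adjusted p was 1.000 for each of the 10 genes. SHMT2 stood at 40.3% and 55.5% of the control in T24 and at 74.6% and 57.6% of it in UM-UC-3, below it in all 4 siRNA libraries. MTHFD2 was also below it in all 4, but at 98.7% under UM-UC-3 siRNA-1, with a 95% counting interval of the ratio that included 1 (0.947 to 1.028).

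siRNA-2 gave lower levels than siRNA-1 for 9 of the 10 genes in UM-UC-3, the exception being PSPH, against 47.9% of all tested genes. In T24 it did so for 6 of the 10, against 57.7% of all. The largest such difference was that of CHAC1 in UM-UC-3, where siRNA-2 gave 0.377 times the level of siRNA-1 (95% counting interval 0.290 to 0.486). PSAT1 differed in direction between the lines, with siRNA-2 at 1.49 times siRNA-1 in T24 and 0.648 times in UM-UC-3. Over both lines the median log2 difference of siRNA-2 from siRNA-1 was -0.32 over the 10 genes and -0.04 over all genes, and 0 of the 10 passed in limma-trend (0.279% of all genes did; 0 of 10 at an unadjusted p under 0.05, against 12.1% of all), in edgeR (0%) or in DESeq2 (1.91%). Within the lines the median of siRNA-2 minus siRNA-1 over the 10 genes was -0.16 in T24 and -0.46 in UM-UC-3, against -0.10 and 0.02 over all genes. Without UM-UC-3 siRNA-1 the median of the fit over both lines was 0.24.

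The siRNA effect was lower in T24 than in UM-UC-3 for each of the 10 genes, a direction of 50.9% of all tested genes. The median difference of the effects was -1.73 on the log2 scale over the 10 genes and -0.01 over all genes. It was -2.74 ± 0.78 for CHAC1, -2.55 ± 0.62 for ASNS, -2.36 ± 0.56 for PHGDH, -2.31 ± 0.55 for PSAT1 and -1.83 ± 0.46 for TRIB3. For ATF4 it was -1.17 ± 0.50 and for SHMT2, the smallest, -0.47 ± 0.48. None of the 10 passed in limma-trend (adjusted p from 0.870 to 0.953, with 0% of all genes called) or edgeR (0% of all), and 6 of the 10 had an unadjusted p under 0.05 with a lower effect in T24, against 3.3% of all genes. TRIB3, PSAT1 and PSPH lay below the control in both T24 siRNA libraries and above it in both UM-UC-3 ones, as did 8.97% of all genes. By DESeq2 ASNS alone passed (1 of 10), against 0.294% of all genes. Over both lines together the median log2 fold change was -0.76, with 0 of 10 called by limma-trend or edgeR (0% of all genes) or DESeq2 (0.656% of all). ATF4, PHGDH, SHMT2 and MTHFD2 (4 of 10) were lower at an unadjusted p under 0.05, against 4.76% of all genes. Without the T24 control, which leaves UM-UC-3 alone, that median was 0.05, and without the UM-UC-3 control, which leaves T24 alone, it was -1.47.

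The lines also differed in how much of each gene they held. Per kilobase of exon, the T24 control held ATF4 at 376, PSAT1 at 328, PHGDH and TRIB3 at 153 each, SHMT2 at 86.7, CHAC1 at 68.7, MTHFD2 at 57.0, PSPH at 27.9, DDIT3 at 24.4 and ASNS at 4.98 CPM. In the UM-UC-3 control the order was ATF4 at 185, SHMT2 at 101, PSAT1 at 71.3, PHGDH at 51.6, MTHFD2 at 39.1, ASNS at 30.5, PSPH and TRIB3 at 9.93 and 9.92, CHAC1 at 2.27 and DDIT3 at 2.14 CPM per kilobase. PHGDH and TRIB3 in T24 and PSPH and TRIB3 in UM-UC-3 were thus level with each other, and ASNS was last in T24 but sixth in UM-UC-3. Exon lengths are unions over GENCODE 29 transcripts, matched by Ensembl identifier.

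Under control treatment the T24 level was 30.2 times the UM-UC-3 level for CHAC1 (95% counting interval 25.1 to 36.6), 15.4 times for TRIB3 and 11.4 times for DDIT3. ASNS went the other way, with 12.4 CPM in the T24 control against 76.0 CPM in the UM-UC-3 control, a ratio of 0.163. With 1 control a line these ratios have no replicate check. In the siRNA libraries, with 2 a line and 1 for each siRNA, limma-trend called 4 of the 10 genes between the lines, against 29.4% of all genes. TRIB3 (log2 difference T24 minus UM-UC-3 2.07 ± 0.27, adjusted p = 0.00269), CHAC1 (1.91 ± 0.45, 0.0227) and DDIT3 (1.48 ± 0.36, 0.0254) were higher in T24, and ASNS was lower (-5.08 ± 0.36, 0.000331). edgeR and DESeq2 called the same 4 genes, against 27.9% and 33.6% of all genes. Without UM-UC-3 siRNA-1 the DDIT3 call was lost (adjusted p = 0.103), and without UM-UC-3 siRNA-2 those of DDIT3 (0.186) and CHAC1 (0.171).

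**Figure D3:**
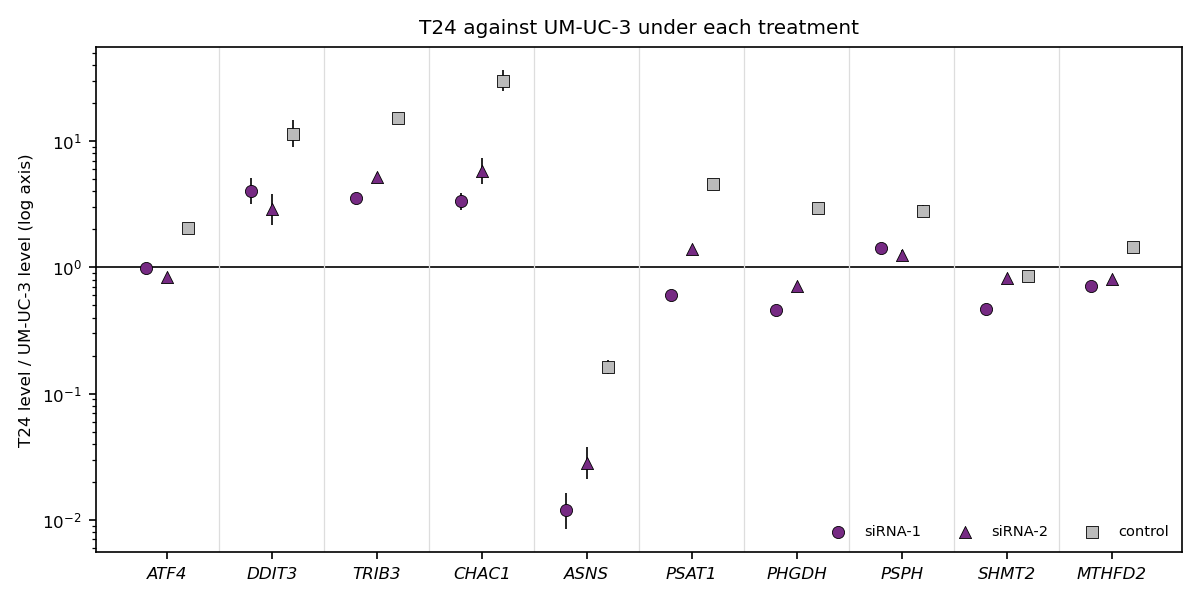
Ratio of the T24 level to the UM-UC-3 level (log axis) for each gene under siRNA-1 (purple circles), siRNA-2 (purple triangles) and control (grey squares), with exact binomial 95% intervals that cover counting error only. For CHAC1, TRIB3 and DDIT3 the ratio stays above 1 under each treatment and is highest under control, while for ASNS it stays below 1 and is lowest under siRNA-1, at 0.0119.

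The gap between the lines was narrower under each siRNA than under control for ATF4, DDIT3, TRIB3, CHAC1, PSAT1, PHGDH, PSPH and MTHFD2. These are the genes that T24 held at the higher level under control, so the same control libraries picked them and set the gap. The change of the ratios restates the difference of the siRNA effects given above and is no separate result. ATF4 stood at 0.984 and 0.833 times the UM-UC-3 level with siRNA-1 and siRNA-2, against 2.04 times in the controls. PSAT1 stood at 0.608 and 1.40 times, against 4.60 times in the controls, and PHGDH at 0.462 and 0.708 times, against 2.96 times. The ASNS gap was wider under the siRNAs, with ratios of 0.0119 and 0.0284 against 0.163 in the controls. For SHMT2, the other gene lower in T24 under control, the ratios were 0.466 and 0.829 against 0.861 in the controls. The siRNA-library difference did not pass for ATF4 (log2 difference -0.14 ± 0.29, adjusted p = 0.739), PSAT1 (-0.12 ± 0.32, 0.807) or PHGDH (-0.80 ± 0.32, 0.111).

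Other genes of the pathway were described by 7 lists, each by its counts and its median log2 fold change. Of all tested genes, 44.9% were below 0 in T24 and 44.6% in UM-UC-3, and in T24 6.91% were lower and 5.22% higher at an unadjusted p under 0.05. The eIF2 list, with the 4 kinases that start the response, the phosphatase subunits that end it and the exchange factor eIF2B, lay on both sides of 0. In T24 5 of its 14 tested members were below 0 and 9 above, with a median of 0.27, and in UM-UC-3 the median was -0.02. EIF2B5, the catalytic subunit of eIF2B, stood at 101 and 96.3 CPM in the T24 siRNA libraries against 60.1 CPM in the control. GCN1, an activator of the amino acid sensing kinase, stood at 430 and 541 CPM against 326 CPM in T24 and at 382 and 330 CPM against 465 CPM in UM-UC-3. PPP1R15A, a phosphatase subunit that the response itself induces, stood at 252 and 109 CPM against 303 CPM in T24. IMPACT, an inhibitor of the same kinase, stood at 28.2 and 27.2 CPM against 15.0 CPM in UM-UC-3 (log2 fold change 0.84 ± 0.31, adjusted p = 1.000).

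Of 13 tested regulators and secreted factors linked to ATF4 12 were below 0 in T24, with a median of -1.04, and 9 were lower at an unadjusted p under 0.05, against 44.9% and 6.91% of all genes. DDIT4, an inhibitor of mTORC1, stood at 27.8 and 26.7 CPM in the T24 siRNA libraries against 131 CPM in the control (log2 fold change -2.22 ± 0.30, adjusted p = 0.143). In UM-UC-3 it stood at 72.8 and 79.7 CPM against 25.5 CPM (1.54 ± 0.30, adjusted p = 1.000), so its siRNA levels lay on opposite sides of the control in the lines. JDP2, a bZIP repressor, stood at 1.12 and 1.76 CPM against 15.6 CPM in T24, and the stress hormone GDF15 at 40.3 and 62.9 CPM against 281 CPM. EIF4EBP1, a repressor of cap-dependent translation, stood at 54.1 and 53.1 CPM against 71.8 CPM in UM-UC-3. The UM-UC-3 median of this list was -0.04, with 7 of 13 below 0.

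Of 16 tested enzymes of other amino acids 7 were below 0 in T24, with a median of 0.10. Members on both sides had an unadjusted p under 0.05, 3 lower (6.91% of all genes) and 3 higher (5.22% of all). CBS, which starts the conversion of homocysteine to cysteine, stood at 7.82 and 8.56 CPM in the T24 siRNA libraries against 31.7 CPM in the control. In UM-UC-3 it stood at 11.3 and 9.19 CPM against 5.40 CPM. PCK2, the mitochondrial enzyme that makes phosphoenolpyruvate, stood at 20.5 and 14.4 CPM against 51.3 CPM in T24 and at 35.5 and 19.7 CPM against 13.5 CPM in UM-UC-3. BCAT2, a transaminase of branched-chain amino acids, stood at 152 and 143 CPM against 65.9 CPM in T24. CBS and PCK2 were therefore below the control in T24 and above it in UM-UC-3 in each siRNA library.

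Of 16 tested folate genes besides SHMT2 and MTHFD2, 8 were below 0 in T24 (median 0.02) and 12 in UM-UC-3 (median -0.33). MTHFD1L, which releases formate from mitochondria, stood at 47.3 and 15.6 CPM in the T24 siRNA libraries against 95.5 CPM in the control. Thymidylate synthase TYMS stood at 6.98 and 8.37 CPM against 15.9 CPM in T24 and at 23.5 and 20.2 CPM against 35.8 CPM in UM-UC-3. The methionine synthase reductase MTRR stood at 125 and 81.8 CPM against 162 CPM in UM-UC-3. TYMS stood below its control under both siRNAs in both lines.

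Most amino acid transporters and aminoacyl-tRNA synthetases were below 0 in T24 and had medians nearer to 0 than the 10 genes. In T24 9 of 10 transporters (median -1.01) and 12 of 12 synthetases (median -0.72) were below 0, with 7 and 6 at an unadjusted p under 0.05, against 44.9% of all genes below 0 and 6.91% lower at that p. In UM-UC-3 7 of 10 transporters (median -0.11) and 5 of 12 synthetases (median 0.12) were below 0. The cystine importer subunit SLC7A11 stood at 44.2 and 65.0 CPM in the T24 siRNA libraries against 319 CPM in the control, the neutral amino acid transporter SLC1A4 at 9.34 and 6.80 CPM against 47.2 CPM, and the glycine transporter SLC6A9 at 9.59 and 8.23 CPM against 35.9 CPM. SLC38A2, an importer of small neutral amino acids, stood at 1038 and 1090.1 CPM against 698 CPM in UM-UC-3. Among the synthetases, the alanine enzyme AARS1 stood at 252 and 271 CPM against 558 CPM in T24, the isoleucine enzyme IARS1 at 339 and 263 CPM against 689 CPM, and the cysteine enzyme CARS1 at 61.2 and 78.2 CPM against 175 CPM. In UM-UC-3 EPRS1, which loads glutamate and proline, stood at 282 and 268 CPM against 197 CPM, and the leucine enzyme LARS1 at 399 and 414 CPM against 303 CPM.

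Targets of ATF6 and XBP1, the other arms of the endoplasmic reticulum stress response, were lower beside the 10 genes in T24. Of 14 tested 13 were below 0 with a median of -1.46, 11 of them at an unadjusted p under 0.05 (44.9% and 6.91% of all genes), while in UM-UC-3 5 of 14 were below 0 with a median of 0.03. The folding enzyme PDIA4 stood at 475 and 460.4 CPM in the T24 siRNA libraries against 1921 CPM in the control, and the chaperone HSP90B1 at 759 and 820.3 CPM against 3185 CPM. HSPA5 stood at 2138 and 2167 CPM against 6698 CPM. In UM-UC-3 DNAJB9 stood at 16.8 and 13.8 CPM against 9.00 CPM and HERPUD1, a degradation factor of the endoplasmic reticulum, at 78.1 and 42.9 CPM against 33.8 CPM. In limma-trend 0 genes of any of the 7 lists passed in either line. DESeq2 called 9 of the 14 ATF6 and XBP1 targets in T24, 5 of the 13 ATF4-linked regulators, 3 of the 10 transporters, 1 of the 16 other amino acid enzymes, 1 of the 12 synthetases and 0 of the eIF2 and folate lists, against 2.43% of all genes. It called 0 genes of the 7 lists in UM-UC-3, against 0.0226% of all genes. The part of the endoplasmic reticulum genes in the T24 levels of the 10 genes was not tested.

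**Figure D4:**
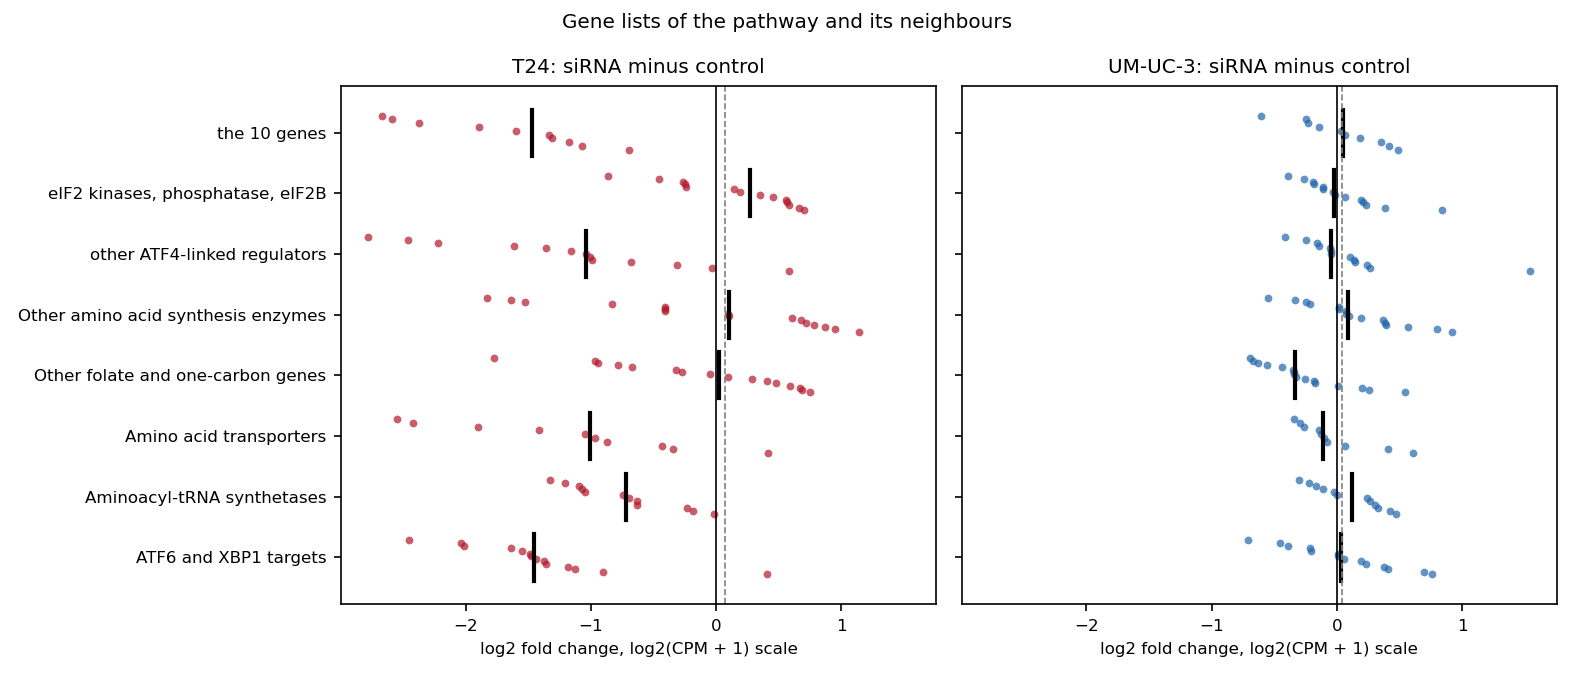
Log2 fold change of siRNA against control (horizontal axis, log2(CPM + 1) scale) for every tested gene of the 10 described here and of the 7 lists, in T24 (left, red) and UM-UC-3 (right, blue). Black bars are list medians and the dashed line is the median of all tested genes. In T24 the medians of the 10 genes and of the endoplasmic reticulum list, -1.47 and -1.46, lie lowest, and in UM-UC-3 all list medians lie between -0.33 and 0.12.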

How the data were processed

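Gene expression was measured by RNA sequencing in 6 libraries. The labels' protocols name Trizol extraction, and bcl2fastq 2.19.1, HISAT2 2.1.0 and HTSeq 0.6.1 appear in the submitters' processing notes, with the builds hg19 and GRCh37 and no roles. The values deposited by the authors are CPM, per the file headers and the values. All values (100%) were whole multiples of 1 read within a tolerance of 0.01, a count of 0 being written as 0.5 read, which gave back the read counts. No source used here states whether counting used strand.

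Files were joined by Ensembl identifier. A gene missing from 1 file of a line was set to 0 there (3410 values in T24, 4104 in UM-UC-3). limma-trend (limma 3.58.1, R 4.3.3) was run on log2(CPM + 1) for genes whose mean over the 6 libraries reached 1 CPM, so fold changes of low genes are understated. Effects within a line, their difference and the line difference came from 1 fit of 4 group means with 2 residual degrees of freedom, in which a single control is assumed to vary like the siRNA libraries. Comparisons over both lines had the cell line as a covariate. The threshold was an adjusted p of 0.05 over all 13265 genes. edgeR 4.0.16 and DESeq2 1.42.0 on the recovered reads, other constants, filters and scalings, a term for the siRNA number and leaving out each library were the alternatives. The code was tested on simulated data. The labels do not call the cultures separate. The p-values therefore rest on the spread among these libraries, which is not known to come from replicate cultures. With 4 group means, the only libraries that share a group are siRNA-1 and siRNA-2 of a line. Their spread mixes any difference between the siRNAs with culture and technical variation, which that fit does not separate. Counting intervals are exact and cover counting error only.

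The 10 genes and the 7 lists were chosen with earlier results of these data known. From each list the 3 genes with the smallest p in T24 and the 2 in UM-UC-3 are named, except 1 gene that is not reported here. FGF21, ALDH1L1 and AMT were not listed in both lines.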

Additional observations from a re-analysis of the deposited data

Results flagged for a closer look

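TRIB3, PSAT1 and PSPH stood below the control in both T24 siRNA libraries and above it in both UM-UC-3 siRNA libraries, as did 8.97% of all tested genes. The T24 effect minus the UM-UC-3 effect was -1.83 for TRIB3 and -2.31 for PSAT1 (adjusted p = 0.870 for each in limma-trend) and -1.05 for PSPH (adjusted p = 0.948), so none of the 3 differences passed in this fit, which has no term for the siRNA number.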

How the results depend on the processing

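The count of the 10 genes past the threshold in T24 was 0 in limma-trend and under each of the other constants, filters and scalings and in edgeR, 5 in DESeq2 and 9 with the siRNA number as a replicate block (6.08% of all genes), and 0 to 3 without each library (1, against 0.574% of all genes, without T24 siRNA-1 and 3, against 4.25%, without T24 siRNA-2). For the difference between lines it was 0, 1 in DESeq2, 5 with the replicate block (TRIB3, CHAC1, ASNS, PSAT1 and PHGDH, against 0.844% of all genes) and 0 without each library. Of all genes, DESeq2 called 2.43% in T24 and 0.294% for the difference between lines. For the line difference in the siRNA libraries limma-trend called 29.4% of all genes. Equal numbers mark the same siRNA, and the siRNA-2 minus siRNA-1 differences of the lines had r = 0.42 over 13265 genes, with 2 pairs only. For the line difference in the siRNA libraries the count was 4, 6 with the replicate block (45.5% of all genes) and 2 to 5 without each library, with 2 and 9.79% of all genes without UM-UC-3 siRNA-2 and 5 and 40.9% without T24 siRNA-2. In UM-UC-3, over both lines and for siRNA-2 against siRNA-1 no setting gave a call to any of the 10.

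The T24 median of the 10 genes stayed between -1.61 and -1.31. The median difference between lines was -1.73, -1.45 with a constant of 5 CPM, -1.81 in edgeR and -1.93 to -1.53 without each library. Over both lines the median was -0.76, and without the T24 control, which leaves UM-UC-3 alone, 0.05. That of siRNA-2 against siRNA-1 was -0.82 to 0.24 without each library, and that between the lines -0.38 to 0.12. Of 1050 values of single genes under an alternative, 11 changed sign, none of them called. The 1050 values include those of the genes picked from the 7 lists by smallest p, and all 11 changes were among the 10 genes. For the 10 genes that count covers the effects within each line, their difference and the line difference in the siRNA libraries. It leaves out the effect over both lines and siRNA-2 against siRNA-1. In the latter PSPH changed sign, at -0.026 in limma-trend and 0.031 in edgeR and DESeq2, and it was not the only gene to do so. Without UM-UC-3 siRNA-1 the median of the 10 genes was 0.24 there, against -0.32 with all libraries. The effect over both lines was below 0 for each of the 10 genes with all libraries. Without the T24 control it is that of UM-UC-3 alone, which was above 0 for 6 of the 10. In UM-UC-3 DDIT3 was -0.017 with TMM scaling and -0.011 in edgeR with TMM. Without each library the UM-UC-3 value ranged from -0.33 to 0.045 for ATF4, -0.12 to 0.19 for DDIT3, -0.51 to 0.65 for CHAC1, -0.23 to 0.60 for ASNS and -0.64 to 0.17 for PHGDH, and the value between the lines from -0.45 to 0.16 for ATF4 and -0.43 to 0.19 for PSAT1. The cause was not tested. Leaving out the T24 control removes the T24 comparison, so it could not be checked that way. DDIT3 in UM-UC-3 (70 to 91 reads) and ASNS in T24 siRNA libraries (38 and 49 reads) are limited by depth.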

Other observations

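Genes were ranked by the root mean square difference from the median profile of the 10 genes over the 4 siRNA libraries. The 9316 candidates had a mean of 10 CPM or more and lay outside the 10 genes and the pathway lists above. Genes of those lists were thus not ranked, and whether any of them lay nearer was not tested. The nearest 5 candidates were CDK2AP2 (0.117 on the log2 scale), PATL1 (0.161), EIF4A1 (0.212), APOL6 (0.213) and BTG1 (0.218). CDK2AP2, which binds the kinase CDK2, stood at 53.2 and 36.9 CPM in the T24 siRNA libraries against 126 CPM in the control, while UM-UC-3 held 45.5 and 36.0 CPM against 42.2 CPM. PATL1, a decapping factor of mRNA decay, stood at 60.2 and 44.6 CPM against 140.0 CPM in T24, and at 145 and 129.2 CPM against 129.8 CPM in UM-UC-3. BTG1, an antiproliferative factor, stood at 20.9 and 19.9 CPM against 52.3 CPM in T24. Among the 10 genes themselves ATF4 lay nearest to the median profile (0.199) and CHAC1 farthest from it (0.881). The libraries of a line share their control, so these profiles are not independent.

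The files list the pseudogenes ATF4P3 and ASNSP3. ATF4P3 stood at 0.434 and 0.262 CPM (12 and 7 reads) in the T24 siRNA libraries against 1.27 CPM (30 reads) in the control, while UM-UC-3 held 0.513 and 0.351 CPM against 1.04 CPM. ASNSP3 had at most 3 reads in a library. The sources used here do not say how reads shared with such copies were counted.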
